A study of Mus musculus with 16 samples.

Results

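The acinar digestive enzymes are the zymogens, lipases, amylases and other secreted products that pancreatic acinar cells store in zymogen granules. They were followed here as 29 named genes, all 29 of which were found by symbol among the 24091 genes of both count tables. The list holds 6 trypsinogens, 4 elastases, 3 chymotrypsins, 2 carboxypeptidases, 6 lipases including a colipase, 3 amylases and 5 other secreted acinar products. Polyadenylated RNA of 16 mice was sequenced. Of the libraries, 6 are whole pancreata at embryonic day 16.5 (E16.5; 3 controls, 3 knockouts), and 10 are islets of males at 60 weeks of age (5 controls, 5 knockouts). Both control groups were Tff2fl/fl and carried no Cre, and both knockout (KO) groups were Pdx1:Cre;Tff2fl/fl, so all 16 animals carried the floxed Tff2 allele. Tff2 encodes a secreted trefoil peptide of the gut. The Pdx1 promoter drives Cre in pancreatic progenitors and later in islets, so deletion can reach acinar, ductal and endocrine cells, and the presence of Cre and the loss of Tff2 cannot be told apart. Libraries are named below by genotype and animal number, and the numbers pair no animals across groups. The islets had been picked by hand after collagenase digestion and a density gradient.

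Acinar cells make most of these proteins as inactive precursors. Trypsin, once switched on in the gut, activates the other zymogens by cleavage, elastases and chymotrypsins cut proteins inside the chain, and carboxypeptidases trim them from the end. Lipases, helped by colipase and bile salts, split fats, and amylase splits starch. The genes are switched on in the fetal pancreas by the PTF1 complex, which contains the factors PTF1A and RBPJL, and different enzymes reach high expression at different stages before and after birth. In isolated islets the same transcripts mark acinar cells or acinar RNA carried over from the digest.

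The count totals ran from 14866194 to 22699934 reads per library in the pancreata and from 22595400 to 32385042 in the islets. Levels are given as CPM (reads of a gene per 1000000 reads of the library, after TMM scaling), and, where genes are compared with each other, as TPM, which also divide by gene length. Tff2 stood at 38.7, 22.7 and 35.1 CPM in the control pancreata and 2.7, 9.96 and 1.6 CPM in KO 01, 18 and 19. It fell by 2.80 ± 0.53 (SE) on the log2 scale (edgeR, adjusted p = 0.0297). In islets the 5 controls ranged from 0.977 to 4.7 CPM and the KO libraries from 0 to 0.478 CPM, without overlap (edgeR, adjusted p = 0.0884). The fetal groups also differed in markers of other cells. Summed CPM of 15 pan-epithelial genes was 3000.3 to 3471 in controls and 2398 to 2484 in KO. The sum of 12 islet hormone and endocrine genes was 2762 to 3609.8 in controls and 1158 to 1842 in KO. KO 01 stood apart with 1787 CPM of 8 liver genes, against 442 to 626 CPM in the other 5 libraries. The part of these markers in the enzyme values below was not tested.

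The enzymes filled a large share of the fetal transcriptome. In control pancreata the 29 genes took 13.3, 11.5 and 13.7% of all counted reads, and in KO 01, 18 and 19 they took 6.01, 11.02 and 9.92%. All 3 KO libraries lay below the 3 controls, and KO 01 lay well below the other 2 KO libraries. Per length, the chymotrypsinogen gene Ctrb1 was the highest, with 107362 ± 8389.8 TPM (SD, n = 3 controls). Pnliprp1, which encodes a lipase-related protein, followed with 69426 ± 2177 TPM, and the control ranges of the 2 genes did not overlap. Colipase (Clps) had 29549 ± 3946 TPM, carboxypeptidase A1 (Cpa1) 14307 ± 802 TPM and the elastase Cela2a 12791 ± 2618 TPM. The ranges of Cpa1, from 13821 to 15232 TPM, and Cela2a, from 9835 to 14816 TPM, overlapped, so their order is not resolved. At the other end lay pancreatic lipase (Pnlip) with 4.62 ± 0.467 TPM, the amylase copy Amy2a5 with 3.89 ± 1.77 TPM and the chymotrypsinogen Ctrc with 3.22 ± 0.797 TPM. The family therefore spanned more than 4 orders of magnitude in one organ, and members of a single class, such as Pnliprp1 and Pnlip, stood at opposite ends.

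**Figure D1:**
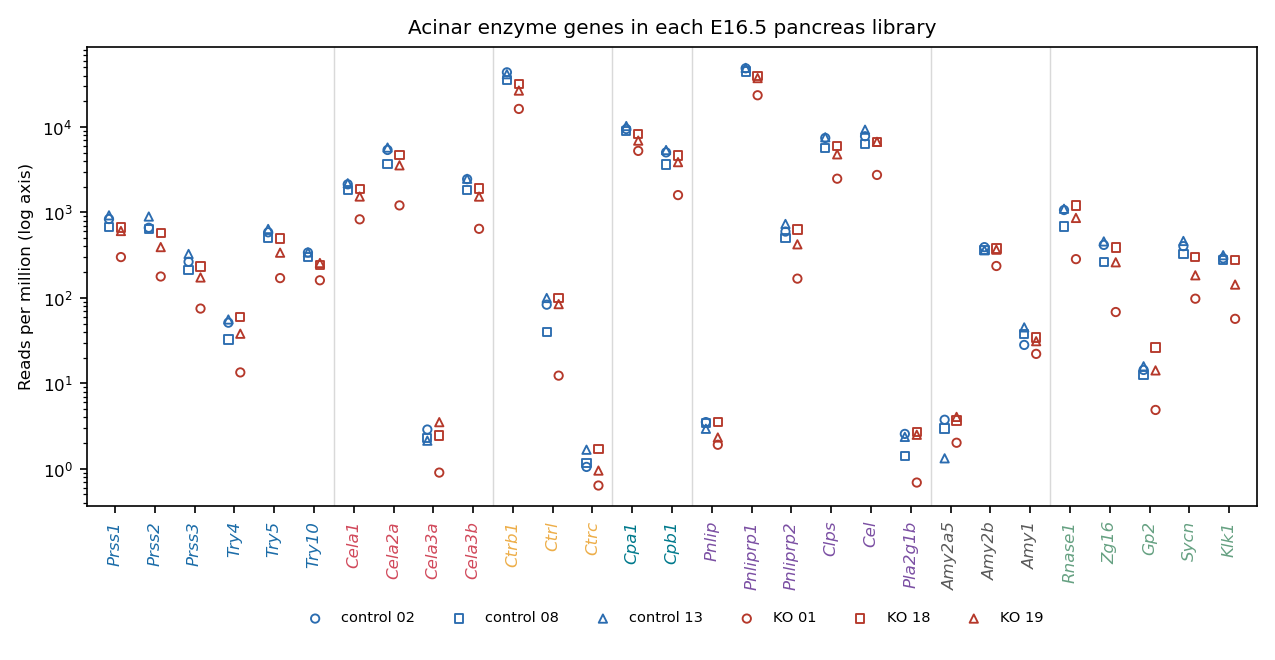
Level of each of the 29 enzyme genes in the 6 E16.5 pancreas libraries, as CPM on a log axis, with controls in blue and KO in red and 1 symbol per animal. KO 01 (red circles) is the lowest library for 28 of the 29 genes.

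Between genotypes, 27 of the 29 genes had a log2 fold change (KO minus control) below 0, where 50.2% of all 14914 genes tested did. Their median was -0.53 against -0.0012 for all genes. None passed an adjusted p of 0.05 in edgeR's quasi-likelihood test, whereas 6.43% of all genes did in either direction and 2.68% with lower levels in KO. At an unadjusted p under 0.05, 8 were lower in KO (all genes, 12.4%), and in 9 every KO library lay below every control (all genes, 16.1%). Those 9 were Prss1, Prss2, Try5, Try10, Ctrb1, Cpa1, Pnliprp1, Sycn and Klk1. This holds in CPM after TMM scaling, and in TPM Prss1, Try5 and Klk1 did overlap. DESeq2 called Try10, Cpa1 and Pnliprp1 lower (all genes, 9.69% called), and limma-voom called Try10 (all genes, 7.91%). In these whole organs, fewer acinar cells and less enzyme RNA per acinar cell cannot be told apart.

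KO 01 stood lowest for nearly all of them. KO 01 was lowest for 28 of 29 genes, with a median ratio to the control mean of 0.342, from 0.165 for Ctrl to 0.752 for Amy2a5. The median ratios in KO 18 and KO 19 were 0.939 and 0.746, and 12 genes of KO 18 stood at or above the control mean. Control 13 was the highest library for 19 genes. Without KO 01 the median log2 fold change was -0.22 (all genes, 0.0014), 20 genes lay below 0 and edgeR called Try10 (all genes, 6.88%). Without KO 18 the median was -0.78 and edgeR called Try5, Cpa1, Sycn and Klk1 lower (all genes, 5.68%). Libraries were also scaled to the 15 pan-epithelial genes, which themselves were lower in KO. The median was then -0.12 against 0.41 for all genes, and 18 of 29 lay below 0. For these runs the share of all genes below 0 was not computed.

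**Figure D2:**
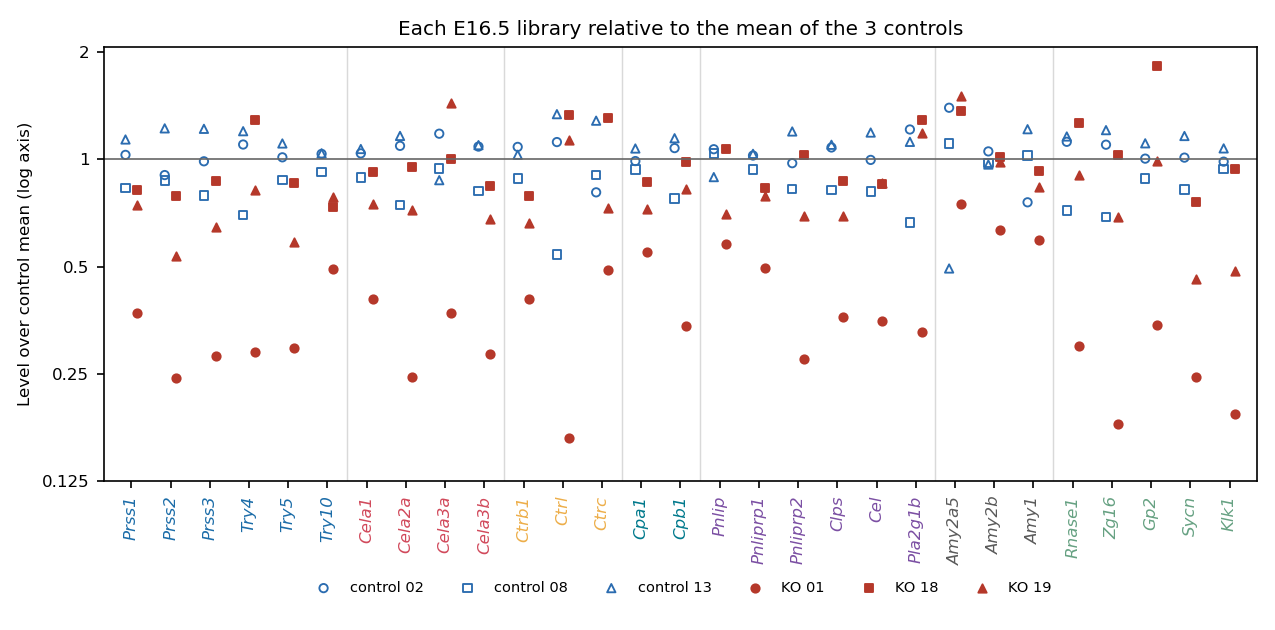
Level of each enzyme gene in each E16.5 library divided by the mean of the 3 controls, on a log axis, with open blue symbols for controls and filled red symbols for KO. KO 01 lies below 1 for all 29 genes, while KO 18 is spread around 1 with Gp2 at 1.83.

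The 6 trypsinogen genes lie in 1 cluster on chromosome 6 (chr6:41302272-41525079, mm10). Prss1, which had the highest control level per length among them, gave 837, 675 and 924 CPM in control 02, 08 and 13, and 300.1, 668 and 606 CPM in KO 01, 18 and 19. Every KO library was below every control in CPM, but in TPM KO 18, at 2091 TPM, exceeded control 08, at 2042 TPM. The log2 fold change was -0.63 ± 0.27 (SE; edgeR, adjusted p = 0.192). For Try10 the values were 339, 302 and 340.2 CPM in control 02, 08 and 13, and 161, 241 and 256 CPM in KO 01, 18 and 19. The groups did not overlap, the coefficient of variation of the controls was 4.23% in TPM, and the log2 fold change was -0.58 ± 0.16 (edgeR, adjusted p = 0.0695), the smallest adjusted p of the 29 genes. Prss2 and Try5 also showed no overlap in CPM, with log2 fold changes of -0.94 and -0.79, though in TPM Try5 had 1567 TPM in KO 18 and 1542 TPM in control 08, while Prss3 and Try4 did overlap, at -0.74 and -0.34. Summed over the class, KO pancreata had 60.1% of the control level (2762 ± 408 CPM in controls, 1659 ± 701 CPM in KO, SD, n = 3 each). The copies are much alike: 66.1% of the 50-base windows of Prss3 transcripts also occur in other genes, 65.6% for Try4, 54.9% for Prss1, 47.6% for Try5, 40.8% for Try10 and 7.83% for Prss2. The sources used here do not give how reads that fit several copies were handled, which leaves the split between these 6 genes uncertain.

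Prss1 and Try4 are shown by the 250 bases before their transcription starts because they are neighbours in sequence, with 70.5% identity over the aligned windows, yet had means of 2377 and 137 TPM in the fetal controls and 0.0696 and 81.3 TPM in the islet controls described further on. Sequences are from RefSeq (GRCm38.p6, the mm10 assembly), written 5′ to 3′ on the gene's own strand. Capitals mark matches, on either strand, to any of the following motifs. CACCTG is a form of the E-box, which bHLH factors such as PTF1A bind with their partners. The letters of the RBPJ and RBPJL part of the PTF1 site are given by the motif TTTCCC. For the element that positions the start of transcription, the TATA box, the motif was TATAAA.
Prss1 (chr6:41458680-41458929, + strand): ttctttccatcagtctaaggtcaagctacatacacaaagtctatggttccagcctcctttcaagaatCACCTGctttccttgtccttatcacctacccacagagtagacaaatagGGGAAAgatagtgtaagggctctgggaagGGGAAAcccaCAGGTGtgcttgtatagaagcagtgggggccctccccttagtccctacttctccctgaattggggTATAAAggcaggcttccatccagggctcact
Try4 (chr6:41302022-41302271, + strand): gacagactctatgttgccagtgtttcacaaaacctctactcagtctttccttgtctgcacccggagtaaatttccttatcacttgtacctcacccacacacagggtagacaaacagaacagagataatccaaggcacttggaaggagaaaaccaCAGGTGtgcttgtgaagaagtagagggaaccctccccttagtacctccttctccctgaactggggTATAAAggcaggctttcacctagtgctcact

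Both windows hold CACCTG and TATAAA at the same distances from the start, -96 and -31, and Prss1 alone holds TTTCCC, at -135 and -106. A RefSeq window was found for 24 of the 29 genes. CACCTG was present in 14 of these 24 (58.3%), against 17.2% of all 32851 promoter windows of the same length. TTTCCC was present in 8 (33.3%, against 21.9%), TATAAA in 10 (41.7%, against 12.4%) and CAAGGTCA, the letters bound by NR5A2, in 2 (8.33%, against 1.33%). CACCTG and TTTCCC occurred together in Cel, Cela3a, Cela2a, Prss1, Prss2 and Cela1 (25% of 24, against 3.61% of all windows). CACCTG followed after 4 bases by TTTCCC was looked for only after these windows had been read. It was present in 4 of the 32851 windows, and 2 of those 4 were Prss1 and Cela1. Because the pair was chosen in this way, the count is no test. Related copies are counted here as separate genes. Prss1, Prss2, Prss3 and Try4 lie in 1 cluster, and the windows of Cela3a and Cela3b are 83.3% identical, so these matches are not independent. The enzymes were counted by gene and the background by window. These are matches of letters and describe no binding.

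Among the elastases, Cela2a (chr4:141814963-141826003) had the highest control level per length, and its libraries gave 5387, 3667 and 5745 CPM in control 02, 08 and 13, and 1208, 4692 and 3559 CPM in KO 01, 18 and 19. KO 18 lay above control 08, and the log2 fold change was -0.65 ± 0.42 (edgeR, adjusted p = 0.377). Cela3b (chr4:137421008-137430520), a pancreatic endopeptidase, gave 2453, 1841 and 2476 CPM in control 02, 08 and 13, and 643, 1902 and 1532 CPM in KO 01, 18 and 19. KO 18 again exceeded control 08, and the log2 fold change was -0.73 ± 0.34 (edgeR, adjusted p = 0.226). Cela1, the classic elastase, had 3634 ± 268 TPM in controls and 2864 ± 886 TPM in KO. Cela3a was almost silent, with 17 to 63 reads in the 6 libraries, beside 12136 to 53758 reads for its neighbour Cela3b, with which it shares 34.2% of its 50-base windows. Cela2a overlaps Casp9 on the opposite strand. Of its 50-base windows, 25.6% also occur in transcripts of Ctrc or Casp9. The sources used here do not give whether counting used strand. The window before Cela1 is shown because its paired match lies in the forward direction, where the pair of Prss1 lies in reverse.
Cela1 (chr15:100687921-100688170, - strand): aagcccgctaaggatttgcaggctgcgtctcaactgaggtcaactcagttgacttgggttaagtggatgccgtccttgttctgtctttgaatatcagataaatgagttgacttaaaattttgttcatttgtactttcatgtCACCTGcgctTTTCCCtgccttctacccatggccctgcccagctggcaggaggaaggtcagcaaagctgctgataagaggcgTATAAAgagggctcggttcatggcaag

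The chymotrypsinogen Ctrb1 (chr8:111686510-111691010) alone took 30.5% of the enzyme reads in control pancreata. Its levels were 43637, 35568 and 41485 CPM in control 02, 08 and 13, and 16276, 31758 and 26683 CPM in KO 01, 18 and 19. The 3 KO values were all below the 3 control values, and the log2 fold change was -0.69 ± 0.23 (edgeR, adjusted p = 0.111). Ctrl, a chymotrypsin-like protease on the same chromosome, followed a different course across libraries: 83.2, 40.2 and 99.6 CPM in control 02, 08 and 13, and 12.3, 99.2 and 84.5 CPM in KO 01, 18 and 19. KO 18 and KO 19 stood within the control range, control 08 was the low control, and KO 01 was at 0.165 of the control mean, the lowest ratio of any enzyme in any library. Ctrc, whose product degrades trypsinogen, had only 12 to 29 reads per library, and it overlaps the antisense gene Ctrcos.

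Both carboxypeptidases were abundant. Cpa1 (chr6:30639218-30645361), which is also an early marker of pancreatic progenitors, gave 9461, 8956 and 10263 CPM in control 02, 08 and 13, and 5252, 8239.8 and 6926 CPM in KO 01, 18 and 19. The groups did not overlap, and the log2 fold change was -0.49 ± 0.16 (edgeR, adjusted p = 0.109). In KO 01 Cpa1 kept 0.549 of the control mean, more than 24 of the other 28 genes. Carboxypeptidase B1 (Cpb1) had a log2 fold change of -0.48 ± 0.35, with KO 01 at 0.341 of the control mean and KO 18 at 0.987.

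Lipases and colipase held the largest class sum, 62752 ± 5153 CPM in controls and 43672 ± 12903 CPM in KO (SD, n = 3 each). Pnliprp1 (chr19:58728887-58744169) made up most of it, with 48657, 44448 and 49192 CPM in control 02, 08 and 13, and 23515, 39514 and 37363 CPM in KO 01, 18 and 19. No KO value reached a control value, and the log2 fold change was -0.50 ± 0.20 (edgeR, adjusted p = 0.158). Its neighbour Pnlip (chr19:58670365-58681788), the main triglyceride lipase of the adult gland, had 36 to 77 reads per library where Pnliprp1 had 443920 to 1066440. Pnliprp2, the other gene of this neighbourhood, had 922 ± 159.6 TPM in controls and 692 ± 349 TPM in KO. Clps and Cel, the bile salt-dependent lipase, had log2 fold changes of -0.64 ± 0.29 and -0.54 ± 0.32. The phospholipase Pla2g1b had 13 to 56 reads per library and a log2 fold change of -0.13 ± 0.47. The windows before Pnlip and Pnliprp1 are shown because Pnlip had the largest ratio of islet to fetal share of the 28 enzymes with islet control reads, and Pnliprp1 the largest fetal share.
Pnlip (chr19:58670115-58670364, + strand): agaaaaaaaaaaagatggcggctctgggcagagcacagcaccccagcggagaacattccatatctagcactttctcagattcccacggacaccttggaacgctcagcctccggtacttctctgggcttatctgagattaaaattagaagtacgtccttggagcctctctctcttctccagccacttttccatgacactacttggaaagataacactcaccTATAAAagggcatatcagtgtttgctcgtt
Pnliprp1 (chr19:58728637-58728886, + strand): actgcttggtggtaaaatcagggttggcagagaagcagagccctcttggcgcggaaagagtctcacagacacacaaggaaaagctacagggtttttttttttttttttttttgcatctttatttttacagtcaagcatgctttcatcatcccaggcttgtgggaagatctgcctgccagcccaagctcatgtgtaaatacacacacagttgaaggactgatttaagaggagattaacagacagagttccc

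The Pnlip window holds TATAAA at -30, and none of the 4 sets of letters searched occurs in the Pnliprp1 window. Identity over the aligned windows was 48.6%.

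The summed level of the amylases in KO was 87.2% of that in controls, against 60.1 to 71.4% in the other 6 classes. Amy2b (chr3:113147656-113156727) gave 392, 364 and 360.3 CPM in control 02, 08 and 13, and 236, 379 and 366 CPM in KO 01, 18 and 19. KO 18 and KO 19 lay within the control range, only KO 01 lay outside it, and the log2 fold change was -0.19 ± 0.16 (edgeR, adjusted p = 0.506). Amy1, the salivary and liver type of amylase, gave 28.1, 38.0 and 45.1 CPM in control 02, 08 and 13, and 22.1, 34.3 and 31.1 CPM in KO 01, 18 and 19. The ranges overlapped, and its log2 fold change was -0.35 ± 0.20 (edgeR, adjusted p = 0.323). Amy2a5 had 23 to 82 reads per library and the highest log2 fold change of the 29 (0.25 ± 0.40). Of the 50-base windows, 57.2% of Amy2a5 and 40.2% of Amy2b also occur in other amylase copies, and Amy1 overlaps Rnpc3 on the same strand, so these counts are uncertain.

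Of the other secreted products, the ribonuclease Rnase1 (chr14:51145002-51146767) was the most abundant per length, with 1066, 684 and 1104 CPM in control 02, 08 and 13, and 284, 1203 and 862 CPM in KO 01, 18 and 19. KO 18 was the highest library of all 6, KO 01 the lowest, and the log2 fold change was -0.28 ± 0.44 (edgeR, adjusted p = 0.726). Syncollin (Sycn, chr7:28540885-28542210), a zymogen granule protein, gave 403, 328 and 463 CPM in control 02, 08 and 13, and 97.7, 303 and 184 CPM in KO 01, 18 and 19. No overlap was seen, and its log2 fold change, -1.03 ± 0.35, was the lowest of the 29 (edgeR, adjusted p = 0.111). The kallikrein Klk1 had no overlap in CPM, with KO 18 at 276.1 CPM and control 08 at 276.2 CPM, and did overlap in TPM, with KO 18 at 727 TPM and control 02 at 700.3 TPM. Its log2 fold change was -0.89 ± 0.45. Zg16, a granule lectin, had a log2 fold change of -0.66 ± 0.52. Gp2, the main glycoprotein of the granule membrane, ran from 4.87 CPM in KO 01 to 26.1 CPM in KO 18, with the 3 controls between 12.6 and 15.8 CPM.

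The genes around the enzymes gave a mixed picture. Of 9 acinar transcription factors tested, 1 fell by edgeR (all genes, 2.68%), namely Ptf1a, the DNA-binding core of PTF1. Ptf1a stood at 98.2, 101 and 101 CPM in the controls and 81.9, 81.5 and 87.6 CPM in KO 01, 18 and 19. It fell by 0.26 ± 0.054 on the log2 scale (edgeR, adjusted p = 0.0362). In contrast to the enzymes, KO 01 was not set apart in Ptf1a from the other KO libraries in CPM. In TPM the groups overlapped, at 150.2, 163.0 and 156.2 TPM in control 02, 08 and 13. KO 01, 18 and 19 had 163.0, 135.8 and 156.9 TPM. The remaining 8 did not pass in edgeR, among them Rbpjl at -0.40 ± 0.13 and Bhlha15, which directs granule packing, at -0.38 ± 0.10, and the list's median was -0.10. DESeq2 called Rbpjl and Bhlha15 lower as well as Ptf1a, and limma-voom called Ptf1a alone. Of 14 other acinar secretory genes tested, none passed in edgeR (all genes, 6.43%), and the median was -0.51. At an unadjusted p under 0.05, 6 were lower in KO (edgeR; all genes, 12.4%), and 14 lay below 0 (all genes, 50.2%). DESeq2 called 5 of the 14 lower (all genes, 9.69% called), among them Serpini2, Erp27, Aqp8 and Gnmt, and limma-voom called Gnmt (all genes, 7.91%). Among them the disulphide isomerase Pdia2 had 1261 ± 91.9 CPM in controls and 904 ± 323 CPM in KO (SD, n = 3 each). Of 18 genes for secretagogue receptors and granule release, Rab27a, a GTPase of granule docking, fell by 0.32 ± 0.055 (edgeR, adjusted p = 0.0239). Its groups did not overlap in CPM, but in TPM KO 01, at 44.9 TPM, exceeded the controls, at 41.7 to 44.4 TPM. Syt1, a calcium sensor best known from neurons, rose by 3.17 ± 0.49 (edgeR, adjusted p = 0.0207), from 4.61, 4.54 and 4.89 CPM in the controls to 74.6, 33.3 and 18.1 CPM in KO 01, 18 and 19. The other 16 did not pass in edgeR or limma-voom, and DESeq2 also called Rab3d lower. With libraries scaled to the pan-epithelial genes, Ptf1a and Rab27a had log2 fold changes of 0.15 and 0.085, where the median of all genes was 0.41, and by library totals neither passed (-0.18 and -0.25; edgeR, adjusted p = 0.119 and 0.0736). Without KO 01 or KO 18 Ptf1a did not pass either (edgeR, adjusted p = 0.0654 and 0.0606). Without control 02, 08 or 13, none of Tff2, Ptf1a, Rab27a and Syt1 passed, with log2 fold changes of -2.64 to -3.00 for Tff2, -0.25 to -0.27 for Ptf1a, -0.32 to -0.34 for Rab27a and 3.15 to 3.20 for Syt1.

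Marker genes of other cells gave the setting of these values. Of the 15 pan-epithelial genes, Krt8, Krt18, Cldn3, Cldn4, Cldn6, Cldn7, Elf3, Spint1, Spint2 and Prom1 fell, by 0.36 to 0.64 on the log2 scale, and Cdh1 had -0.33 ± 0.10. Of the 12 islet endocrine genes, Ins1, Ins2, Iapp, Sst, Ppy, Pyy, Chga, Pcsk1, Pcsk2 and G6pc2 fell, by 0.61 to 1.25, and Gcg had -1.22 ± 0.32. Among duct genes Sox9 and Spp1 fell by 0.47 and 0.63, Car2 rose by 1.40, and Muc1 had -0.38 ± 0.093. Among stromal genes Acta2 and Myh11 of smooth muscle rose by 0.59 and 1.51, while Col1a1 and Col3a1 had 0.17 and 0.14. In endothelium Flt1 and Eng fell by 0.53 and 0.58, and Pecam1 and Cdh5 had -0.44 and -0.42. Ttr fell by 0.50 and Lyz2 of myeloid cells rose by 0.95, whereas the liver gene Trf had 0.93 and the macrophage gene Csf1r 0.32. The red cell genes Hbb-bs and Hba-a2 had 0.33 and 0.23. The calls named here are edgeR's at an adjusted p under 0.05. Without control 02 or 13 none of these marker genes was called, and without control 08 only 1 islet endocrine gene was, while the list medians of pan-epithelial and endocrine genes stayed at -0.43 to -0.48 and -0.998 to -1.19. Over all genes 560 rose and 399 fell, against 779 and 179 by library totals and 9841 and 42 with pan-epithelial scaling.

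In islets the same 29 genes were read as a measure of acinar carry-over. They took 0.051, 0.165, 0.0512, 0.16 and 0.195% of the reads in control 052, 826, 829, 857 and 858, and 0.0933, 0.255, 0.157, 0.0163 and 0.143% in KO 055, 122, 803, 812 and 845. The highest library held 15.6 times the share of the lowest, and both of these, KO 122 and KO 812, were knockouts. KO 812 was the lowest library for 25 of the 29 genes and KO 122 the highest for 23. KO 812 also had the lowest sum of the 10 stromal marker genes, 120.5 CPM against 210.1 to 271 CPM in the controls, and of the duct genes, 185 CPM against 192 to 235 CPM in the other 9 libraries. KO 122 was the second lowest in stromal genes. The part of these in the enzyme values was not tested. The defining islet genes were high in every library, with Ins1 and Ins2 at means of 38828 and 78626 CPM in controls and 37843 and 72136 CPM in KO.

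**Figure D3:**
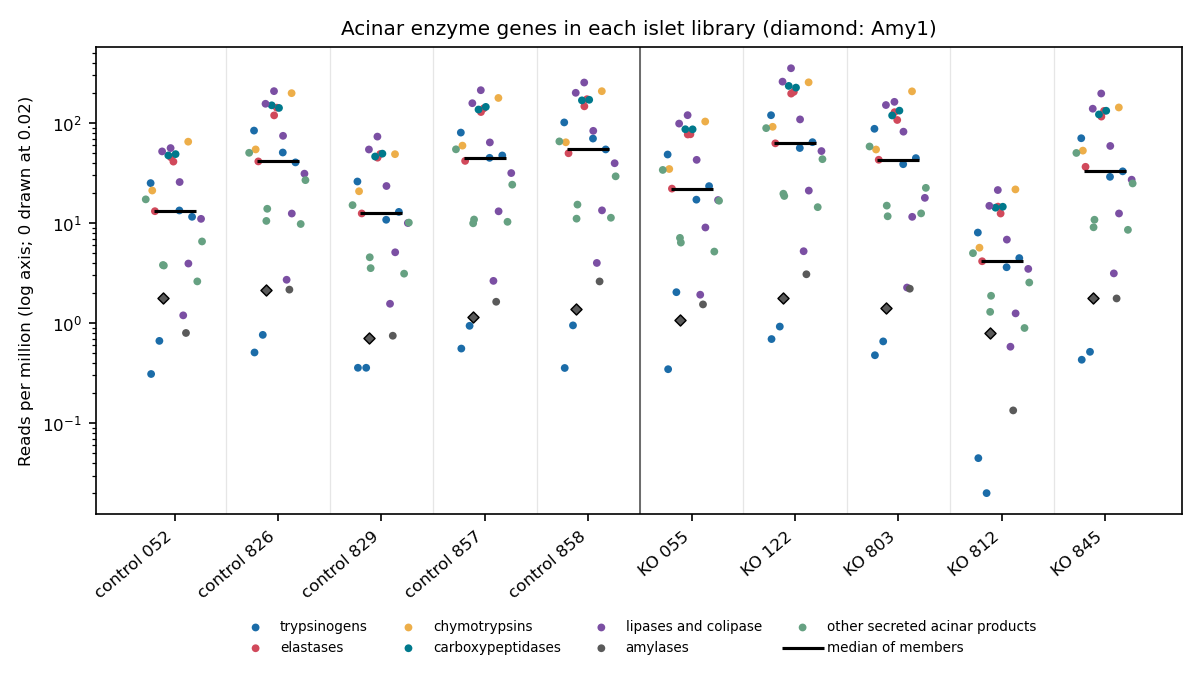
Level of the 25 enzyme genes tested in islets in each of the 10 islet libraries, as CPM on a log axis coloured by class, with a black bar at the median of the genes and a diamond for Amy1. Most of the set shifts up and down together between libraries, from KO 812 to KO 122, while Amy1 stays between 0.717 and 2.12 CPM. The Amy1 counts are uncertain, as the gene overlaps Rnpc3 on the same strand. Prss3, highest in KO 055 at 2.04 CPM, and Try10, at 0.357 CPM in control 858 and 0.358 CPM in control 829, also depart from it.

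Most of the enzymes went up and down as a block. Pnlip, the enzyme with the most reads in islets, had 56.3, 209, 73.3, 213 and 255 CPM in control 052, 826, 829, 857 and 858, and 120.1, 354, 163, 21.4 and 198 CPM in KO 055, 122, 803, 812 and 845. Ctrb1 had 65.2, 199, 49.0, 179 and 209 CPM in control 052, 826, 829, 857 and 858, and 104, 256, 208, 21.7 and 143 CPM in KO 055, 122, 803, 812 and 845. Cel had 52.2, 156, 54.5, 158 and 201 CPM in control 052, 826, 829, 857 and 858, and 99.0, 260.0, 152, 14.9 and 139 CPM in KO 055, 122, 803, 812 and 845. In all 3, KO 812, control 052 and control 829 were the low libraries and KO 122 was the high one. The highest library exceeded the lowest 16.5-fold for Pnlip, 11.8-fold for Ctrb1 and 17.4-fold for Cel. Among the enzymes with more than 3 reads in every library, this span was 9.01- to 19.3-fold, with the exception of Amy1, where it was 2.96-fold. Amy1 had only 18 to 50 reads per islet library and overlaps Rnpc3 on the same strand. Of its 50-base windows, 34.1% also occur in other genes, most often Rnpc3. The part of Rnpc3 reads in the Amy1 values was not tested. The mix of the block changed less than its size. Among 22 enzymes with more than 3 reads in every library, the highest share of the enzyme reads in the 10 libraries was 1.08 to 6.92 times the lowest, with a median of 1.35, and it was over 1.5 times for 8 of them. The steadier ones included the most abundant: Cel made up 9.03 to 10.5% of the enzyme reads, Cpb1 8.71 to 9.4%, Cela1 7.34 to 8.87% and Pnlip 10.7 to 14.1%. The 8 that moved more included Try5, at 1.82 to 3.6%, Clps, at 1.18 to 2.12%, Gp2, at 0.57 to 0.985%, and Amy1, at 0.0706 to 0.488%. These shares are of reads and are not corrected for gene length.

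Other acinar genes split into those that followed the block and those that did not. The summed level of the other acinar secretory genes was 50.4 CPM in KO 812, 91.6 in control 052 and 100.2 in control 829, the 3 lowest, and 358 CPM in KO 122, the highest. Its most abundant genes were the trypsinogen-like 2210010C04Rik, with 11.6 CPM in KO 812 and 199 CPM in KO 122, and Dmbt1. Within the same list Tmed6 and Gnmt did not follow: Tmed6 had 18.5 CPM in KO 812 and 17.3 in KO 122, and Gnmt 3.18 and 3.01. These 2 were singled out after their values were seen. The 9 acinar transcription factors summed to 498 to 549 CPM over the 10 libraries, mostly from Xbp1 and Bhlha15, which other secretory cells also use.

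Genotype did not order the islet libraries. Of the 25 enzymes tested, none was called (all genes, 0.155%), none was lower in KO at an unadjusted p under 0.05 (all genes, 3.71%; for these 25, none in either direction, and none by DESeq2 or limma-voom after adjustment), and in none did every KO library lie below every control (all genes, 0.774%). Only 5 of the 25 had a log2 fold change below 0, where 50.7% of all 14219 genes did, and the median was 0.095. That sign is not stable: limma-voom, which weights libraries by quality, placed 24 of 25 below 0, and leaving out KO 122, control 052 or control 829 placed 23, 19 and 20 below 0. The 3 enzymes with the lowest p were Gp2, Try5 and Pnliprp2. Gp2 had 3.81, 10.5, 4.56, 9.97 and 11.1 CPM in control 052, 826, 829, 857 and 858, and 7.13, 19.7, 14.97, 1.3 and 9.09 CPM in KO 055, 122, 803, 812 and 845, and its log2 fold change was 0.40 ± 0.50 (SE; edgeR, adjusted p = 0.922). Try5 had 13.4, 50.9, 10.8, 45.0 and 70.1 CPM in control 052, 826, 829, 857 and 858, and 17.2, 56.4, 38.9, 3.62 and 29.1 CPM in KO 055, 122, 803, 812 and 845, and its log2 fold change was -0.38 ± 0.60 (edgeR, adjusted p = 0.951). Pnliprp2 had 3.95, 12.5, 5.11, 13.1 and 13.4 CPM in control 052, 826, 829, 857 and 858, and 9.05, 21.2, 11.6, 1.25 and 12.5 CPM in KO 055, 122, 803, 812 and 845, and its log2 fold change was 0.21 ± 0.51 (edgeR, adjusted p = 0.971). In each case the genotypes overlapped across most of their range. The log2 fold changes of Pnlip, Ctrb1 and Cel were 0.087 ± 0.57, 0.066 ± 0.54 and 0.10 ± 0.56. The standard errors of these 6 were 0.50 to 0.60. In the same fit Tff2, at -3.07 ± 0.59, did not pass (edgeR, adjusted p = 0.0884). Enzyme differences well above these errors could therefore also have gone uncalled. No gene of the 3 acinar lists was called in islets by edgeR or by limma-voom, while DESeq2 called Tmed6. At an unadjusted p under 0.05 in edgeR, 3 of their genes passed, where 1021 of all 14219 genes did. No marker gene was called by any of the 3 tools.

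A model over all 16 libraries asked whether the genotype difference itself differed between fetal pancreas and islets. It called 7.19% of 15823 genes and none of the 29 enzymes, of which none reached an unadjusted p under 0.05. The interaction estimates (islets minus E16.5, log2) ran from 0.27 to 1.44, with Sycn lowest in p (1.13 ± 0.73, edgeR, adjusted p = 0.398). Those of Cela3a (1.44), Amy2a5 (1.24) and Prss1 (0.93) rest on 1, 5 and 9 islet reads in total. The share of all genes with an estimate above 0 was not computed. The E16.5 differences, of which 27 of 29 lay below 0, enter these estimates. Most enzymes moved together between islet libraries, so the 29 estimates are not separate results.

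The mix of enzyme reads in islets differed from the fetal mix. In the fetal controls Pnliprp1 made up 36.1% of the enzyme reads and Ctrb1 30.5%, and in islet controls they made up 4.45% and 11.2%. Pnlip went the other way, from 0.00252% to 12.8%. Across all libraries, the share of 19 enzymes was higher in every islet library than in every fetal library, the share of 6 was lower, and 4 overlapped. The 6 were Prss1, Try10, Ctrb1, Pnliprp1, Clps and Amy2b, and the 4 were Prss3, Cela3a, Cpa1 and Amy2a5. The tissues differ in age, preparation and cell content, and were deposited as separate tables, so no test was made. The shares are taken within each library, so they do not scale with its total, but a larger share of one enzyme lowers the shares of the others. Where islet reads were few, the shares are coarse and single reads can decide whether ranges overlap. Ctrc had 1 to 22 reads per islet library, Try10 1 to 18, Prss1 0 to 4 and Amy2a5 0 to 2.

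**Figure D4:**
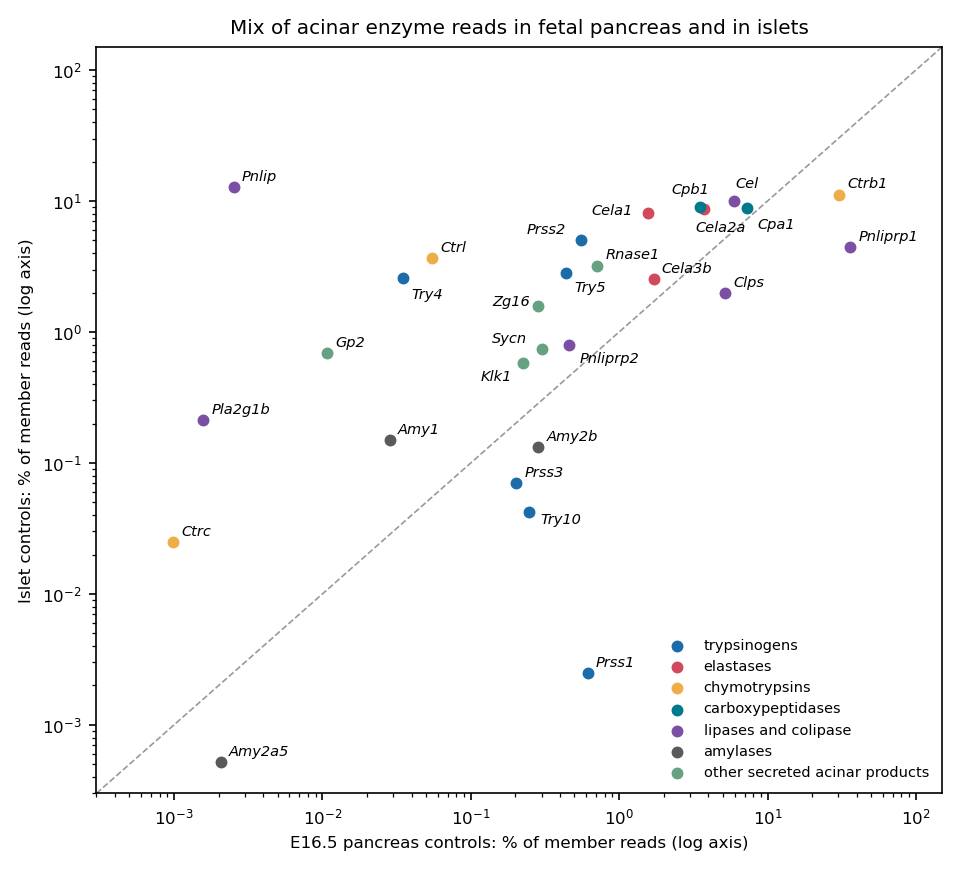
Share of the enzyme reads taken by each gene in islet controls against that in E16.5 control pancreata, both as % on log axes, coloured by class, with a dashed line of equal shares; Cela3a, at 0 in the islet controls, is left out. Pnlip, Try4, Ctrl, Gp2 and Pla2g1b lie far above the line and Prss1 far below it.

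Within classes, close relatives changed places. Among the trypsinogens Prss1 had 5665 to 18335 reads in the pancreata and 0 to 4 reads in the islet libraries, while Try4 went from 0.0349% of enzyme reads in fetal controls to 2.58% in islet controls and Prss2 from 0.555% to 5.03%. Try10 had 3031 to 7430 fetal and 1 to 18 islet reads. Part of the Prss1 sequence also occurs in other genes, most often Gm5771, Gm10334 and Prss3, and in Try4, which had 100 to 1674 reads in the islet libraries. How reads that fit several copies were counted is not given, so the split between these genes is uncertain in islets too. The upstream windows printed above for Prss1 and Try4 differ in TTTCCC, which of the 2 only that of Prss1 holds. The window of Prss2, whose share was larger in islets, holds TTTCCC at -110 and -78. That of Prss3, at 0.202% in fetal controls and 0.0699% in islet controls with overlapping ranges, holds none. Any link of these letters to the shares was not tested. Among the chymotrypsinogens Ctrl went from 0.0552% to 3.68% and Ctrc from 0.000985% to 0.025% on 1 to 22 islet reads. Among the lipases Pnlip had 36 to 77 fetal and 479 to 9180 islet reads, so the gene with the fewest lipase reads but 1 in the fetus had the most in the islets. Gp2 went from 0.0108% to 0.686%, Pla2g1b from 0.00158% to 0.213% and Zg16 from 0.284% to 1.57%. The amylases stayed below 1% of enzyme reads in both tissues.

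**Figure D5:**
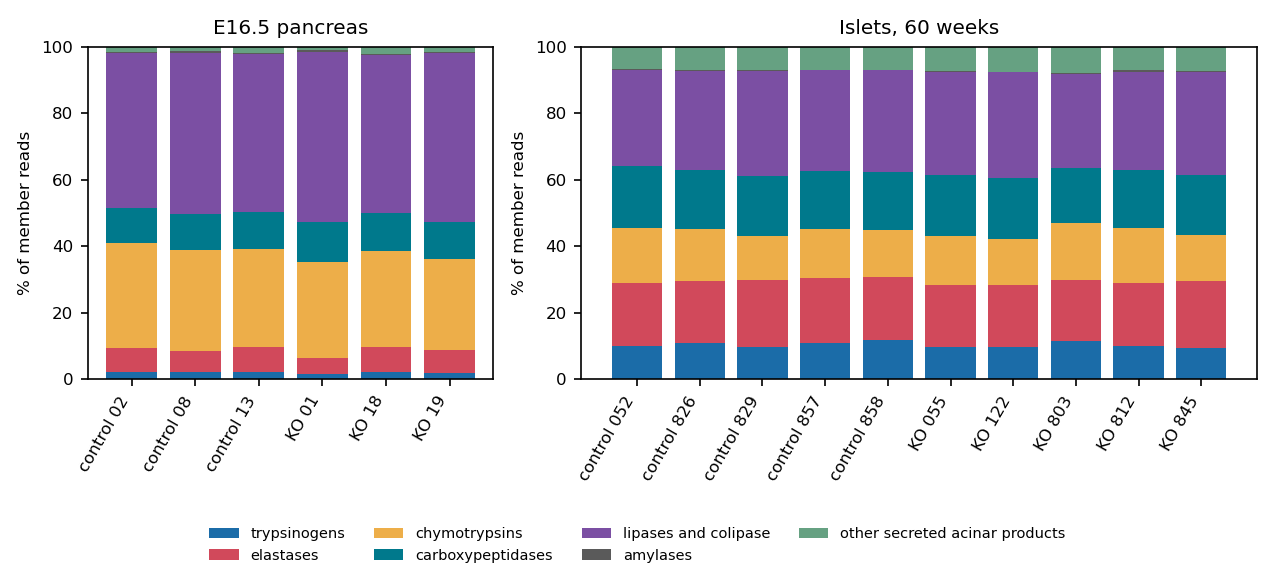
Share of the enzyme reads by class in each E16.5 pancreas library (left) and each islet library (right), as % stacked to 100. Lipases and chymotrypsins fill most of the fetal bars, elastases, trypsinogens and carboxypeptidases take more in islets, and the class shares vary less between islet bars than the enzyme share of all reads, which differs 15.6-fold.

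The fetal libraries also differed among themselves in this mix. Over the 25 enzymes tested in islets, the log2 ratio of islet to fetal share was set against the log2 ratio of each fetal library to the control mean. Spearman's rho was 0.63 in KO 18, -0.29 in KO 01 and 0.22 in KO 19, and 0.23, -0.24 and 0.34 in control 02, 08 and 13. These describe 25 genes of single libraries that share 1 control mean, and carry no test. In KO 18 the 19 enzymes of larger share in islets had a median of 0.951 of the control mean, from 0.761 to 1.83. The 6 of smaller share had a median of 0.851, from 0.737 for Try10 to 1.02, so the 2 ranges overlapped. Highest of the 19 were Gp2, Ctrl, Try4 and Pla2g1b, at 1.83, 1.33, 1.29 and 1.29. In KO 01 Ctrl, Zg16 and Klk1 were lowest, at 0.165, 0.18 and 0.193. The best kept of the 25 there were Amy2b, Amy1, Pnlip and Cpa1, at 0.634, 0.596, 0.58 and 0.549. In rho, KO 18 lay above the control span of -0.24 to 0.34, KO 01 just below it and KO 19 within it. Whether the KO pancreata differed from each other in enzyme mix was not tested.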

How the data were processed

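Raw read counts per gene were used as the authors deposited them, in 1 table for the E16.5 pancreata and 1 for the islets, together with a deposited gene length in kilobases. Per the submitters' processing notes, Trimmomatic, STAR 2.6.0, HTSeq 0.11.1 and edgeR were used, with the mm10 build; the sources used here do not give the strand setting or how reads that fit several genes were treated. Per the labels, libraries were made from polyadenylated RNA of single embryos or of the islets of single mice. From these counts, edgeR 4.0.16 (R 4.3.3) kept genes by its expression filter, scaled by TMM and tested KO against control by quasi-likelihood in each tissue, with Benjamini-Hochberg adjustment over all genes tested and a threshold of 0.05. A model with tissue, genotype and their interaction was fitted over all 16 libraries. TPM were computed from the counts and the deposited lengths. At E16.5 all 29 enzymes were tested, and in islets 25, without Prss1, Cela3a, Ctrc and Amy2a5. DESeq2 1.42.0, limma-voom 3.58.1 with quality weights, other scalings and filters, and leaving out each library were tried. The pipeline was tested on simulated data. Windows of 50 bases were compared between GENCODE M21 transcripts, and promoter windows came from RefSeq (GRCm38.p6). Named per library at E16.5 were, in each class, the gene with the highest control level per length and that with the lowest p, and in islets the 3 most abundant and the 3 with the lowest p. Of the acinar lists, the genes past the threshold or else the 2 most abundant were named, and of the marker lists the 2 most abundant and any that passed. Some list genes that this rule names are not reported here. The enzymes and lists were chosen with earlier results of these data known. The litters of the embryos are not given in the labels, and p-values measure the spread between these animals.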

Additional observations from a re-analysis of the deposited data

Results flagged for a closer look

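In 95 sets of 5 islet libraries (the enzymes, their sums and the marker sums, by genotype), 6 had 1 library standing apart from the other 4 by Dixon's 95% criterion, which chance alone meets in about 1 of 20 sets. Of the enzymes, 3 with almost no islet reads were among them: Prss1 at 0.154 CPM in KO 055, Cela3a at 0.0299 CPM in KO 803 and Amy2a5 at 0.0425 CPM in 1 control. Each rests on at most 4 reads. The summed acinar transcription factors stood at 549 CPM in control 829, above the other 4 controls at 498 to 510.1 CPM. Red cell genes summed to 68.3 CPM in control 052, and endothelial genes to 1139 CPM in KO 055. No enzyme with more than 4 reads in any library stood apart in this way in either genotype.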

How the results depend on the processing

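The count of enzymes called at E16.5 was 0 in edgeR under every scaling and filter tried, 3 by DESeq2, 1 by limma-voom and 0 to 4 with 1 library left out. Counts over all genes were 959 at E16.5, 9883 when scaled to pan-epithelial genes and 1548 by DESeq2; without single libraries they ran from 0 to 1035, at 0, 4 and 0 without control 02, 08 and 13. The cause was not tested. In islets 22 genes were called, 111 by DESeq2 and 5 to 26 without single libraries. The interaction called 1137 genes, and 515 to 1186 without single libraries. No enzyme was called in islets or in the interaction under any alternative run. Pan-epithelial scaling turned the log2 fold change to above 0 for Try4 (0.066), Cela3a (0.30), Ctrl (0.19), Ctrc (0.14), Pnlip (0.055), Pla2g1b (0.28), Amy2b (0.22), Amy1 (0.055) and Rnase1 (0.12), and limma-voom placed Gp2 at -0.14. The same scaling gave 0.15 for Ptf1a and 0.085 for Rab27a. With 1 library left out, the sign also turned for Try4 (-0.86 to 0.079), Cela3a (-0.58 to 0.29), Ctrl (-0.63 to 0.31), Ctrc (-0.71 to 0.030), Pla2g1b (-0.43 to 0.30), Amy2a5 (-0.064 to 0.58), Amy2b (-0.31 to 0.0079), Rnase1 (-0.73 to 0.12) and Gp2 (-0.59 to 0.50). In islets limma-voom gave -0.36 for Pnlip, -0.30 for Ctrb1, -0.39 for Cel, -0.019 for Gp2 and -0.20 for Pnliprp2. Leaving out single islet libraries gave -0.36 to 0.37 for Pnlip, -0.23 to 0.34 for Ctrb1, -0.30 to 0.39 for Cel and -0.15 to 0.49 for Pnliprp2. No paired analysis was possible because the animal numbers of the groups share no value. Depth did not limit the abundant enzymes; Prss1, Prss3, Try10, Cela3a, Ctrc, Amy2a5 and Amy2b had at most 3 reads in at least 1 islet library.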
